A study of Homo sapiens with 16 samples.

Results

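Antisense-named long non-coding RNAs were measured in total RNA of HEK293T, a transformed human embryonic kidney cell line, transduced with a lentivirus that expresses histone H2A or its mutant H2A(E92K). Genes were taken whose symbol ended in -AS and a number and whose mean raw count over the 16 libraries was at least 30, with EPB41L4A-AS1 left out. The members were thus chosen by name and by mean raw count, treated libraries included, and their level is no finding. Of 57500 genes in the deposited counts, 1256 had such a name, 1026 had at least 1 count, and 272 reached the minimum. The 4 groups, of 4 libraries each, were compared: cells with H2A in DMSO, cells with H2A(E92K) in DMSO, cells with H2A in 1 µM JQ1 for 3 h, and cells with H2A in 2.5 µM pinometostat for 24 h, where the treatment text of the labels writes mM for the last dose. All 4 groups carried a vector, the control included, and no untransduced cells were analysed here. JQ1 displaces BET bromodomain proteins from acetylated chromatin, pinometostat inhibits DOT1L, the methyltransferase of H3 lysine 79, and E92 of H2A lies in the acidic patch of the nucleosome. The labels do not say whether the 4 libraries of a group came from separate cultures, so p-values measure the spread between these libraries, which may be technical. Both drug groups were read against the same DMSO libraries, for which the labels give no duration, so time in culture and drug cannot be told apart.

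Antisense transcripts are made from the strand opposite to a named gene, the sense gene. Many start next to the promoter of that gene and run away from it, others converge on its end or lie inside it. Promoters of mammalian genes often fire in both directions, and the upstream product is usually cut short by early polyadenylation or the Integrator complex and removed by the nuclear exosome, so that a stable antisense RNA is one that escaped this removal. Some act on the gene beside them, some act elsewhere, and for most no function is known.

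Of the 272 members, 262 had a gene of the name before the hyphen in the table. In 163 pairs the start sides of the genes faced each other (head-to-head): in 49 the genes pointed apart without overlapping, and in 114 the member started inside the sense gene and ran out through its start. In 53 pairs the ends overlapped (tail-to-tail), 25 members lay inside the sense gene and 21 spanned it. The median distance between the 2 starts of head-to-head pairs was 418 bases (quartiles 156 and 999), and it reached 51568 bases for LIFR-AS1. GENCODE 29, used here for gene types, listed 188 members as antisense, 39 as processed transcripts and 35 as lincRNA. It listed 3 as bidirectional promoter lncRNA, 3 as transcribed unitary, 2 as transcribed unprocessed and 1 as transcribed processed pseudogenes, and 1 as protein-coding. The name alone thus does not make every member a non-coding RNA. Start and end of 258 of the 272 were the same in GENCODE 29 and in the exon coordinates of the files.

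RefSeq gave a promoter window, 250 bases before to 50 bases after the start, for 215 members (GRCh38.p14). These windows were rich in CpG, with a median of 26 CpG against 14 over all 35116 windows, and a median ratio of observed to expected CpG of 0.82 against 0.58. On either strand, the GC box GGGCGG was present in 67.0% of the members' windows and 45.0% of all windows, the ETS site CCGGAAG in 16.7% and 10.3%, the NRF1 motif GCGCATGC in 7.44% and 3.05%, and the CRE TGACGTCA in 4.19% and 1.85%. The CCAAT box CCAAT stood in 32.6% and 34.6%, the E-box CACGTG in 9.30% and 7.26%, and the TATA box TATAAA in 5.58% and 11.5%. The 35116 windows were not limited to expressed genes, whereas the members were chosen by a minimum count. Whether the members' windows differ from those of other expressed genes was not tested. A match is only a run of letters and not a measured binding site. The windows of 6 members are printed, 5′ to 3′ on the member's strand with every searched motif in capitals, because they are examples of the gains, losses and changes relative to the sense gene described below; they are not the largest or steadiest of each kind. They are NUP50-AS1 (NUP50-DT in RefSeq, chr22:45163732-45163840, minus strand), CEBPA-AS1 (CEBPA-DT in RefSeq, chr19:33302571-33302870, plus), KCTD21-AS1 (chr11:78139661-78139842, plus), ASB16-AS1 (chr17:44186668-44186967, minus), MYLK-AS1 (chr3:123585263-123585562, plus) and FBXL19-AS1 (chr16:30923220-30923519, minus). For NUP50-AS1 and KCTD21-AS1, 191 and 118 bases that are untranslated region of a coding gene were left out.
NUP50-AS1: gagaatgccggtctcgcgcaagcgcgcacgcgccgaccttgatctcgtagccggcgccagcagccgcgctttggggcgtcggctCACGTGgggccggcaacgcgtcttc
CEBPA-AS1: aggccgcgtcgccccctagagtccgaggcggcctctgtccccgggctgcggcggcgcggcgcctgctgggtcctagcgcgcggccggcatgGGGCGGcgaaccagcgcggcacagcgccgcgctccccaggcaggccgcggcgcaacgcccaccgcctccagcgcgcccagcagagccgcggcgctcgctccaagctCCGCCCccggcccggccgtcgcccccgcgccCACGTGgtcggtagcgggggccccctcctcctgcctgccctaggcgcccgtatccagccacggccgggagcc
KCTD21-AS1: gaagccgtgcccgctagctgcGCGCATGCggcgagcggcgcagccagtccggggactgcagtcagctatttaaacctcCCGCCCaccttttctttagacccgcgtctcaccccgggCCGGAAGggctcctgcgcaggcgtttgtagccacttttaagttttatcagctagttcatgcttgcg
ASB16-AS1: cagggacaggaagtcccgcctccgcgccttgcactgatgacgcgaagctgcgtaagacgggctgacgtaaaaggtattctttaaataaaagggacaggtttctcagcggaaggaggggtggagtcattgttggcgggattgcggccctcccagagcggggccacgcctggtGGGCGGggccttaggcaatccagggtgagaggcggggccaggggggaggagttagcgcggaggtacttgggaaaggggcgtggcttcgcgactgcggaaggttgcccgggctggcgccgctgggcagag
MYLK-AS1: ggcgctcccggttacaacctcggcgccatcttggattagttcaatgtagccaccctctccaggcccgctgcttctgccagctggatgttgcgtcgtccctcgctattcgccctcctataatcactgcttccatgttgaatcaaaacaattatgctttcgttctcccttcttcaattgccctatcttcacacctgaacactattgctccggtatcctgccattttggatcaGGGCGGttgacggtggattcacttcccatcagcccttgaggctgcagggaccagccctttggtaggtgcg
FBXL19-AS1: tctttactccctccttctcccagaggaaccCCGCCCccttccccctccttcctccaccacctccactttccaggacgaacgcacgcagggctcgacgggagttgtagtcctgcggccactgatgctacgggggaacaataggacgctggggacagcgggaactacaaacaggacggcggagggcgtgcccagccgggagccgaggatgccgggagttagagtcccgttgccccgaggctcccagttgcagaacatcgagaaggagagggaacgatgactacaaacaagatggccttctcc
The NUP50-AS1 stretch, which covers the 60 bases between the starts of NUP50 and its antisense RNA, held 1 E-box. The CEBPA-AS1 window had 2 GC boxes and 1 E-box. KCTD21-AS1 had an NRF1 motif, a GC box and an ETS site, and the other 3 windows had 1 GC box each.

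Libraries held 17779692 to 27599686 counts. In JQ1 replicate 1, 16.5% of counts came from mitochondrial genes (3.04% to 3.69% in JQ1 replicates 2 to 4), and in E92K replicate 4 it was 7.45%. The counts of called members are given below with and without these 2 libraries. No 2 replicates of a group agreed within counting noise. HEXIM1, which holds P-TEFb inactive and is known to rise with BET inhibitors, was at 94.8 to 100.3 TPM (the authors' unit, which accounts for transcript length) in the JQ1 libraries and at 25.4 to 37.6 TPM in the DMSO libraries. All 9 HEK293T markers were expressed, with summed levels of 540 to 699 TPM in DMSO, 553 to 644 TPM with JQ1 and 369 to 451 TPM with pinometostat; blood and endothelial markers summed to at most 6.01 and 0.672 TPM in any library, and fibroblast markers to 49.1 to 102.6 TPM. Neither 3 h nor 24 h of drug moved any blood, fibroblast or endothelial marker past the test below. In bulk RNA, fewer cells of a kind and less RNA per cell cannot be told apart.

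The members spanned a wide range of levels. The mean TPM over 16 libraries ran from 0.364 to 711, with a median of 4.76, while the sense genes had a median of 10.7 TPM. By this scale, which accounts for length, 82 of the 262 members with a sense gene stood above it. LRRC75A-AS1, the host RNA of small nucleolar RNAs also called SNHG29, was the most abundant at 711 TPM, with its sense gene LRRC75A at 2.30 TPM. NCBP2-AS2 followed at 111.7 TPM, ATP2A1-AS1 at 98.96 TPM, VPS9D1-AS1 at 80.6 TPM, TRIM52-AS1 at 66.3 TPM and PIK3CD-AS2 at 51.4 TPM. FGD5-AS1 (48.9 TPM), PITPNA-AS1 (47.1 TPM) and URB1-AS1 (46.9 TPM) were also among the first 10. FGD5-AS1 stood far above its sense gene, the guanine exchange factor FGD5 at 0.549 TPM. Just above the minimum lay MCF2L-AS1, IER3-AS1 and TSPEAR-AS2 with mean counts of 30.1875, 30.625 and 30.875, and just below it POT1-AS1, RAP2C-AS1 and CDC37L1-AS1 with 29.9375, 29.9375 and 29.875. The minimum was reached by 269 members in the DMSO libraries alone (not by ASMTL-AS1, DGUOK-AS1 and FEZF1-AS1), by 265 with pinometostat and by 231 with JQ1.

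Reads from the 2 strands of a locus are told apart only if the counting used strand, and the sources used here do not state that setting. Exons of 180 members lay partly under exons of their sense gene, with a median of 4.27% of exonic bases over the members and a highest value of 69.9% for PITPNA-AS1. In the table, 19 of 19 antisense-named genes with at least 99% of their exonic bases under exons of the other strand were at 0 in every library, as were 753 of 778 such genes of any name, whereas 25.7% of antisense-named genes with under 1% so covered were at 0. Without strand, reads from covered bases of a member and its partner cannot be told apart. If such reads were left uncounted, covered bases add to neither gene, and a level or a ratio rests on the uncovered bases only. Which of these holds was not tested, and the share of covered bases is given beside most of the pairs described in detail.

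JQ1 lowered more members than it raised. With edgeR's quasi-likelihood test over all 17306 tested genes and a Benjamini-Hochberg adjusted p below 0.05, 36 of 272 members fell (13.2%, against 10.4% of all tested genes) and 8 rose (2.94%, against 7.16%). The median log2 fold change of the members was -0.11 (quartiles -0.32 and 0.21), and that of all tested genes 0.04 (quartiles -0.22 and 0.27). The 4 JQ1 and 4 DMSO libraries did not overlap in 46 members (16.9%, against 20.5% of all tested genes), which included 7 of the rises (2.57%, against 5.68% of all genes) and 32 of the falls (11.8%, against 9.63%). Scaling by library size alone shifted the median of all genes to -0.14 and gave 3 members higher and 54 lower. A fit on log2(TPM + 1) shifted it to -0.21 and gave 1 higher and 48 lower. Of all tested genes, 2.50% rose and 15.05% fell with library size alone, and 1.21% and 12.6% with log2(TPM + 1). Leaving out DMSO replicate 3 or DMSO replicate 4 gave 3 higher and 27 or 31 lower. Of all tested genes, 4.18% rose and 8.43% fell without DMSO replicate 3, and 4.74% and 8.60% without DMSO replicate 4. Leaving out JQ1 replicate 1 and E92K replicate 4 gave 13 higher and 53 lower, and all 8 and all 36 were among them. In that fit 10.2% of all tested genes rose and 13.85% fell.

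**Figure D1:**
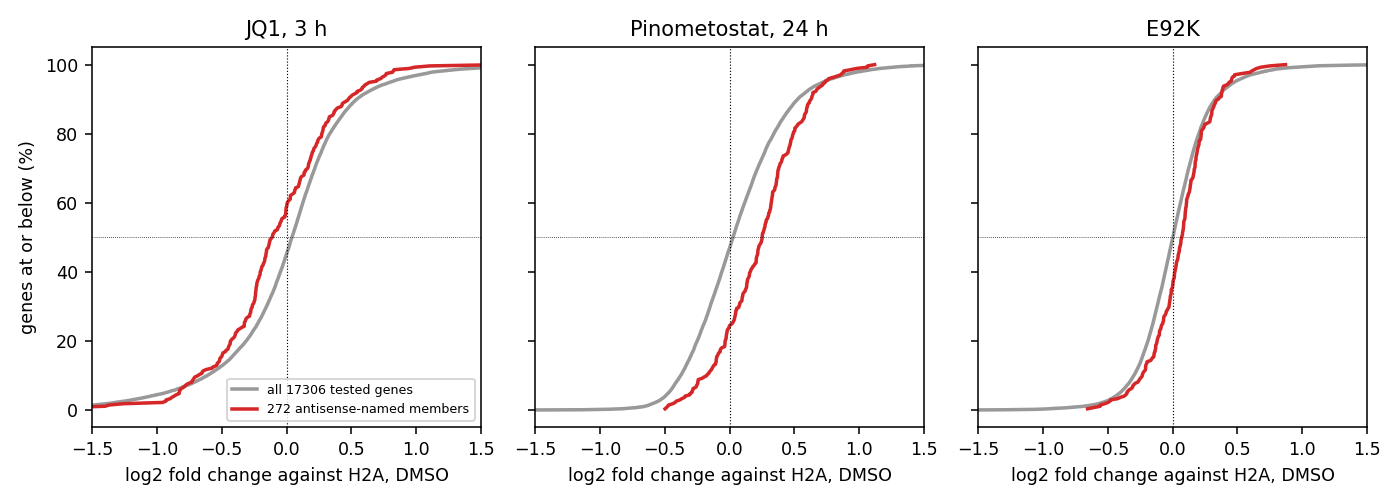
Cumulative share of genes (vertical axis, percent) at or below each log2 fold change against H2A in DMSO (horizontal axis, shown from -1.5 to 1.5) for the 272 members (red) and all 17306 tested genes (grey), in 3 panels for JQ1, pinometostat and E92K. The red curve lies left of the grey one in its middle with JQ1 (medians -0.11 and 0.04), right of it with pinometostat (0.25 and 0.03) and close to it with E92K (0.07 and 0.00).

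The losses with JQ1 sat mainly among head-to-head members. Of the 163 head-to-head members 30 fell (18.4%), against 4 of the 99 members in other positions (4.04%). The share was 28.6% for the 49 head-to-head members whose bodies did not overlap the sense gene, and 14.04% for the 114 that overlapped it. Median log2 fold changes were -0.16 for head-to-head members and 0.03 for the others. Among the sense genes of head-to-head members 24 of 161 fell (14.9%) and 18 rose (11.2%), with a median of 0.02. Among those of the other members 7 of 89 fell (7.87%) and 12 rose (13.5%), with a median of 0.15. Losses were thus also more frequent among the sense genes of head-to-head members. Over all tested genes, a start within 1000 bases of a start on the other strand did not go with a larger share of losses: 10.1% of 5213 such genes fell and 10.6% of the other 12093. Antisense and lincRNA genes of GENCODE 29 that are no members and had a mean count of at least 30 fell in 13.8% of 565 cases and rose in 4.07%. The head-to-head count was 21 to 33 when single libraries were left out, lowest without DMSO replicate 3, and the difference between positions was not tested.

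**Figure D2:**
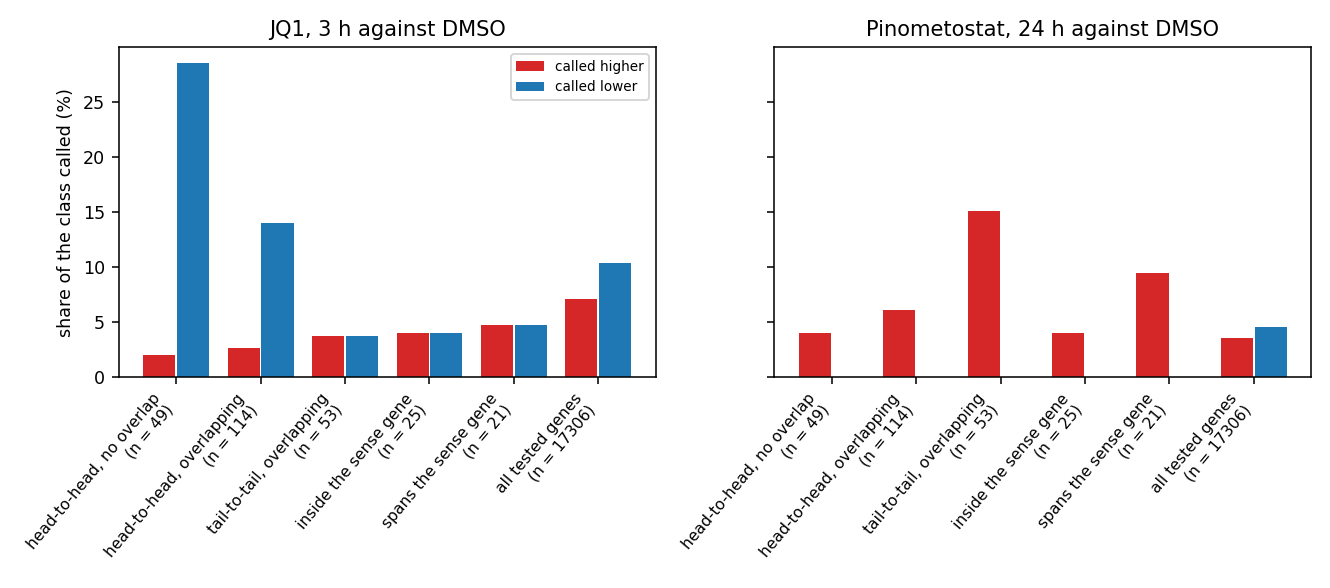
Share of members called higher (red bars) and lower (blue bars), in percent, by position relative to the sense gene, beside all 17306 tested genes, for JQ1 (left) and pinometostat (right). With JQ1 the blue bars reach 28.6% and 14.04% in the 2 head-to-head classes and stay at or below 4.76% in the other 3; with pinometostat no bar is blue for members and the highest red bar is the tail-to-tail class at 15.1%.

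HHIP-AS1 showed the largest fall. It runs head-to-head with HHIP, which encodes a membrane protein that binds Hedgehog ligands, at chr4:144642922-144661357 on the minus strand, with 11.4% of its exonic bases under HHIP exons. Its level was 1.92, 2.33, 2.03 and 1.95 CPM (counts scaled to library size by TMM) in the DMSO libraries and 0.725, 0.635, 0.466 and 0.513 CPM in the JQ1 libraries, so the groups were well separated. The log2 fold change was -1.82 (SE 0.22, edgeR adjusted p = 1.598e-05). HHIP itself was at 8.93 ± 0.950 CPM in DMSO and 7.65 ± 1.48 CPM with JQ1 (SD, n = 4 each), a log2 difference of -0.23 that did not pass the edgeR test (adjusted p = 0.387). The log2 ratio of antisense to sense therefore moved by -1.45 (SE 0.21, limma adjusted p = 0.0005615).

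TRG-AS1 lies in the T cell receptor gamma locus at chr7:38341577-38378804 on the plus strand and has no sense gene of that name in the table. Its 4 DMSO libraries held 3.08, 2.63, 2.85 and 3.87 CPM and its 4 JQ1 libraries 1.305, 1.02, 0.569 and 0.979 CPM, with no overlap (log2 fold change -1.69, SE 0.24, edgeR adjusted p = 7.934e-05). ATP6V0E2-AS1, opposite a subunit gene of the vacuolar proton pump at chr7:149867697-149880610, fell from 3.64, 4.21, 4.23 and 3.46 CPM to 0.725, 1.56, 1.35 and 2.10 CPM. All JQ1 libraries lay below all DMSO libraries. The log2 fold change was -1.40 (SE 0.23, edgeR adjusted p = 0.0002725) while ATP6V0E2 rose from 71.4 ± 5.61 to 85.9 ± 4.00 CPM (log2 fold change 0.27, edgeR adjusted p = 0.0381). The pair moved apart by -1.74 in log2 ratio (SE 0.25, limma adjusted p = 0.0004894), with 26.3% of the member's exonic bases under sense exons.

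CEBPA-AS1 fell together with its sense gene, and fell further. CEBPA encodes a leucine zipper transcription factor, and its antisense RNA starts 293 bases away at chr19:33302857-33305054 with no exonic overlap. CEBPA-AS1 was at 9.46, 8.42, 8.74 and 7.02 CPM in DMSO and at 2.47, 4.49, 3.37 and 3.59 CPM with JQ1 (log2 fold change -1.26, SE 0.18, edgeR adjusted p = 9.126e-05). The 2 groups did not overlap, nor did those of CEBPA, which went from 16.9 ± 1.74 to 12.1 ± 0.518 CPM (log2 fold change -0.47, edgeR adjusted p = 0.006601). The ratio fell by 0.81 on the log2 scale (SE 0.20, limma adjusted p = 0.0157). PRKCQ-AS1, 118 bases from the start of the protein kinase C theta gene, gave a contrast to this pair: it fell from 7.84 ± 0.999 to 4.03 ± 0.371 CPM (log2 fold change -0.96, SE 0.13, edgeR adjusted p = 5.449e-05), PRKCQ fell too (log2 fold change -0.63, edgeR adjusted p = 0.0117), and the ratio, at -0.31, did not pass the limma test (adjusted p = 0.241).

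ZNF503-AS2 and LBX2-AS1 fell while their sense genes did not pass the test. ZNF503 encodes a zinc finger repressor, and ZNF503-AS2 starts 387 bases from it at chr10:75401519-75408982 on the plus strand, with 11.6% of exonic bases covered. The antisense RNA had 20.5, 22.4, 21.8 and 23.4 CPM in DMSO and 13.8, 11.1, 12.4 and 10.3 CPM with JQ1, again without overlap (log2 fold change -0.90, SE 0.15, edgeR adjusted p = 0.0003094). ZNF503 was at 135.3 ± 9.57 CPM in DMSO and 152.5 ± 19.4 CPM with JQ1, and the ratio fell by 1.06 on the log2 scale (SE 0.16, limma adjusted p = 0.0007065). LBX2-AS1, beside a homeobox gene at chr2:74502595-74504678 with 31.2% of exonic bases covered, went from 3.94 ± 0.548 to 2.10 ± 0.822 CPM (log2 fold change -0.93, SE 0.22, edgeR adjusted p = 0.007023). Its JQ1 library nearest to the DMSO group, at 3.26 CPM, was replicate 1. The 7 members described from HHIP-AS1 to LBX2-AS1 were called in each of the 8 fits that left out 1 library of the comparison, and 25 of the 36 in all were. UBA6-AS1, at -0.93, was called with groups that overlapped, and MAPKAPK5-AS1 had the smallest fall of the 36, at -0.39 in log2 fold change.

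The gains with JQ1 were fewer and less steady. ASB16-AS1, which ends against the gene of an ankyrin repeat and SOCS box protein at chr17:44175973-44186717, was at 5.63, 5.39, 5.21 and 5.63 CPM in DMSO and at 9.43, 9.57, 10.3 and 9.56 CPM with JQ1, a clean separation with little spread (log2 fold change 0.83, SE 0.12, edgeR adjusted p = 7.15e-05). ASB16 differed by 0.88 in log2, from 0.880 ± 0.253 to 1.64 ± 0.282 CPM, at an edgeR adjusted p of 0.101, and 31.1% of the antisense exonic bases lay under its exons. NUP50-AS1 runs away from the nuclear pore gene NUP50, at chr22:45133020-45163781, with 60 bases between their starts and no overlap. It rose from 6.46, 8.79, 8.74 and 8.52 CPM to 16.9, 12.6, 12.01 and 13.5 CPM (log2 fold change 0.75, SE 0.19, edgeR adjusted p = 0.0109), while NUP50 fell from 102.5 ± 5.996 to 77.7 ± 12.2 CPM (log2 fold change -0.40, edgeR adjusted p = 0.0228). This was the only member called higher with a sense gene called lower; their ratio moved by 1.16 (SE 0.26, limma adjusted p = 0.009153). JQ1 replicate 1 was the highest library for NUP50-AS1 and the lowest for NUP50.

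THUMPD3-AS1, which spans the gene of a transfer RNA methyltransferase at chr3:9349689-9398579 with 10.518% of exonic bases covered, had the largest rise, from 13.5, 17.6, 15.7 and 13.7 CPM to 51.3, 25.2, 22.4 and 18.3 CPM. Replicate 1 alone held 51.3 CPM; the log2 fold change of 0.95 (SE 0.22, edgeR adjusted p = 0.006097) was 0.51 without that library and still called. HAS2-AS1 rose with HAS2, the hyaluronan synthase gene it overlaps head-to-head on chromosome 8 (11.2% of exonic bases covered): the antisense RNA went from 1.51 ± 0.418 to 2.45 ± 0.215 CPM (log2 fold change 0.69, edgeR adjusted p = 0.02996) and HAS2 from 12.8 ± 2.06 to 21.4 ± 2.89 CPM (log2 fold change 0.75, edgeR adjusted p = 0.0121). This was the only pair in which both genes were called higher. SDCBP2-AS1 (0.62), RBM26-AS1 (0.54) and PHEX-AS1 (0.48), opposite the genes of a PDZ protein, an RNA binding protein and a phosphate-regulating peptidase, also rose on the log2 scale without overlap of the groups (edgeR adjusted p = 0.0253, 0.0337 and 0.0279). KIF9-AS1, the last of the 8, was called at 0.70 with overlapping groups (edgeR adjusted p = 0.0336). Only THUMPD3-AS1, ASB16-AS1 and NUP50-AS1 were called in all 8 fits that left out 1 library.

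**Figure D3:**
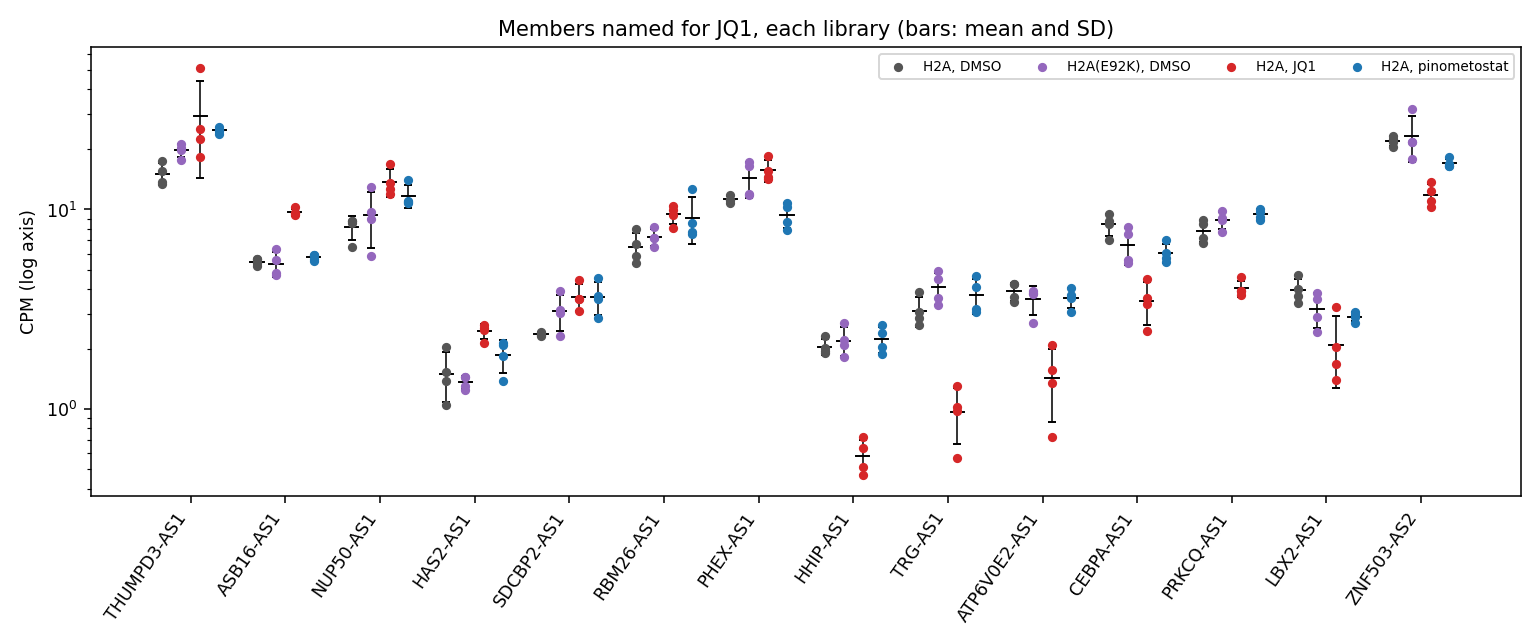
Level of each member named for JQ1 (CPM scaled by TMM, logarithmic vertical axis) in the 4 libraries of each group, 1 point per library with bars for mean and SD, coloured by group. The JQ1 points (red) lie above all DMSO points (grey) for the 7 members on the left and below them for the 7 on the right; the single high point of THUMPD3-AS1 at 51.3 CPM is JQ1 replicate 1.

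Set against the sense gene, 43 of 250 tested pairs changed their antisense to sense ratio with JQ1 (17.2%, against 11.6% of 4582 opposite-strand pairs, limma). Of the 43, 30 moved downward (12%) and 13 upward (5.2%). In the other opposite-strand pairs the ratio was plus-strand gene to minus-strand gene, so up and down have no antisense meaning there. The shares by direction over all 4582 pairs (5.89% downward, 5.67% upward) are therefore no baseline for direction. Of the 76 pairs with no exon of the member under sense exons, 22 were among the 43. Both genes fell in 7 pairs and both rose in 1. In 24 pairs the antisense RNA alone fell, in 6 it alone rose, and in 49 the sense gene alone was called, 26 upward and 23 downward. Neither gene was called in 159 of the 250 pairs and in 3096 of the other 4332 opposite-strand pairs. In those 4332, both genes fell in 47 pairs and both rose in 54. The plus-strand gene alone fell in 299 and rose in 241, and the minus-strand gene alone fell in 298 and rose in 264. Fold changes had the same sign in 141 of 250 pairs (56.4%), against 56.5% of the other opposite-strand pairs. KCTD21 gave the largest change of ratio: this gene of a BTB domain protein rose from 5.06 ± 0.847 to 13.9 ± 0.229 CPM (log2 fold change 1.46, SE 0.18, edgeR adjusted p = 1.889e-05), and KCTD21-AS1, tail-to-tail with it at chr11:78139771-78175323, went from 2.97, 4.31, 4.07 and 3.38 CPM to 2.18, 2.59, 2.02 and 2.56 CPM. No JQ1 library reached the lowest DMSO library. The antisense change of -0.65 (SE 0.17, edgeR adjusted p = 0.0143) was not called without DMSO replicate 2 (-0.56), but the ratio, at -2.09 (SE 0.25, limma adjusted p = 0.0001036), was called in all 8 fits that left out a library. In KCTD21-AS1, 28.9% of exonic bases lie under exons of KCTD21.

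In 3 pairs the antisense RNA was called lower and the sense gene higher: ATP6V0E2, KCTD21 and TOB1. Of the other 4332 opposite-strand pairs, 17 had the plus-strand gene lower and the minus-strand gene higher, and 16 the opposite. TOB1-AS1, opposite an antiproliferative gene, went from 4.92, 4.78, 5.08 and 4.02 CPM to 2.90, 3.56, 3.78 and 3.27 CPM (log2 fold change -0.47, edgeR adjusted p = 0.0386), and TOB1 rose by 0.47. This antisense call held in 2 of the 8 fits that left out 1 library, and was lost without DMSO replicate 1, 2 or 3 or JQ1 replicate 1, 2 or 4. In TOB1-AS1, 13.1% of exonic bases lie under exons of TOB1. The reverse case in size was FOXD3, a forkhead transcription factor gene of early development. FOXD3 fell from 13.3 ± 0.905 to 4.01 ± 1.02 CPM (log2 fold change -1.71, SE 0.15, edgeR adjusted p = 5.217e-07), whereas FOXD3-AS1 was at 6.01, 7.68, 8.34 and 7.89 CPM in DMSO and at 6.89, 7.13, 6.37 and 5.74 CPM with JQ1. The antisense groups overlapped (14.8% of exonic bases covered), and the difference of -0.20 did not pass the edgeR test (adjusted p = 0.404), so that the ratio rose by 1.56 (SE 0.23, limma adjusted p = 0.0005437). URB1-AS1, beside a ribosome assembly gene, showed a ratio of -0.81 (limma adjusted p = 0.0491) with URB1 called at 0.48 (edgeR adjusted p = 0.0105); the ratio was called in 2 of the 8 fits that left out a library, with a limma adjusted p of up to 0.133.

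**Figure D4:**
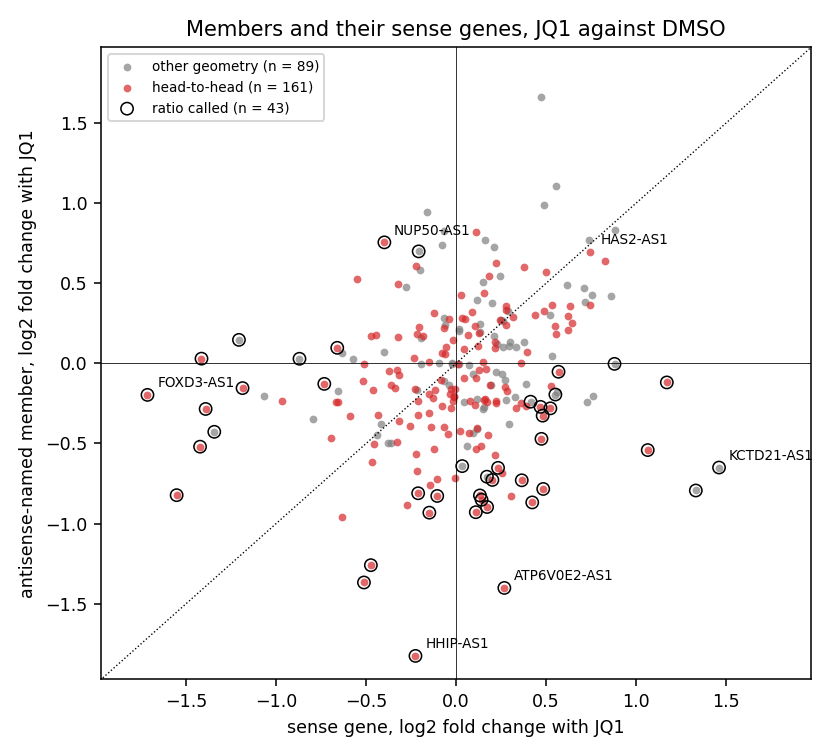
Log2 fold change with JQ1 of each member (vertical axis) against that of its sense gene (horizontal axis) for 250 pairs, 161 head-to-head (red) and 89 in other positions (grey), with the 43 called ratios ringed and equal change on the dotted diagonal. KCTD21-AS1 lies at 1.46 on the horizontal and -0.65 on the vertical axis, FOXD3-AS1 at -1.71 and -0.20.

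In all, 10 members have no gene of the name before the hyphen in the table, and 7 of these lie in the HOX clusters, which encode homeobox factors of the body axis. With JQ1, TRG-AS1 and HOXA-AS2 were the 2 of the 10 that fell. HOXA-AS2 went from 4.54, 4.28, 3.17 and 3.68 CPM to 2.25, 2.34, 2.43 and 2.15 CPM (log2 fold change -0.77, SE 0.16, edgeR adjusted p = 0.002423), with every JQ1 library below every DMSO library. Of 15 coding HOX genes that these members overlap or adjoin on the other strand, 9 fell and 0 rose with JQ1, where 10.4% of all tested genes fell and 7.16% rose: HOXA3 by 0.59, HOXA5 by 1.01, HOXA6 by 1.22, HOXA7 by 1.18, HOXB3 by 1.06, HOXB6 by 0.95, HOXC6 by 0.62, HOXC9 by 0.95 and HOXD8 by 1.15 on the log2 scale. HOXC-AS1, at 0.19, and HOXD-AS2, at -0.05, did not pass the test in the same clusters (edgeR adjusted p = 0.562 and 0.888). Of the 10 members without a named sense gene, 9 had a log2 fold change below 0 with JQ1, and the median of the 10 was -0.34.

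With pinometostat all calls among the members were upward. With the same edgeR test 23 of 272 rose (8.46%, against 3.62% of all tested genes) and 0 fell (0%, against 4.58%), where 8.2% of all genes were called in either direction. At an unadjusted p below 0.05, 76 were higher and 8 lower. DESeq2 called 32 higher and 2 lower, where 5.02% of all tested genes rose and 8.55% fell. With limma-voom it was 31 and 0, where 4.36% of all tested genes rose and 4.96% fell. The median log2 fold change was 0.25 (quartiles 0.02 and 0.45) against 0.03 for all tested genes (quartiles -0.20 and 0.27), and 74 members had groups that did not overlap (27.2%, against 26.3%), among them all 23 that rose (8.46%, against 3.35% of all genes) and 0 that fell (0%, against 4.35%). Of the 269 members that reached the minimum in the DMSO libraries alone, 22 rose. Other non-coding classes moved alike: 49 of 565 non-member antisense and lincRNA genes at the same minimum rose (8.67%) and 0 fell, while 3.18% of protein-coding genes rose and 5.64% fell. The count depended on which libraries were in the fit. Without JQ1 replicate 1 and E92K replicate 4, which are not in this comparison, 67 were higher and 8 lower, with all 23 among the 67. In that fit 12.9% of all tested genes rose and 14.5% fell, so the calls grew over all genes and not in the members alone. Leaving out DMSO replicates 1 to 4 in turn gave 2, 10, 10 and 16 higher, where 0.449%, 1.71%, 1.54% and 3.86% of all tested genes rose. Leaving out pinometostat replicates 1 to 4 gave 5, 9, 14 and 12, where 1.02%, 1.64%, 1.68% and 1.68% of all tested genes rose. The fit on log2(TPM + 1) gave 0 higher and 0 lower, where 0.399% of all tested genes rose and 2.24% fell.

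By position, 8 of 53 tail-to-tail members rose (15.1%), 9 of 163 head-to-head members (5.52%), 2 of 21 that span the sense gene, 1 of 25 inside it and 3 of the 10 without one. Of 250 tested pairs, none had both genes called higher, as had only 14 of the other 4332 opposite-strand pairs. In 18 pairs the antisense RNA alone was higher, and in 1 it was higher with the sense gene lower. The sense gene alone was higher in 9 and lower in 20, where 3.62% of all tested genes rose and 4.58% fell. In the other 4332 pairs the plus-strand gene alone rose in 183 and fell in 151. The minus-strand gene alone rose in 160 and fell in 161 of them. The sense genes had a median log2 fold change of -0.03. Fold changes of member and sense gene correlated at 0.18 (Pearson), against 0.11 in the other pairs. They had the same sign in 52.8% of pairs, against 56.4%. Summed over all members, the DMSO libraries held 2478 to 2794 CPM and the pinometostat libraries 3333 to 3426 CPM, with no overlap. Much of this sum is LRRC75A-AS1; without it the ranges were 1815 to 1937 CPM and 2097 to 2220 CPM, still apart.

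LRRC75A-AS1, at chr17:16438822-16478678 on the plus strand with 12.024% of exonic bases covered, rose from 662, 774, 869 and 809.5 CPM to 1215, 1129, 1236 and 1144 CPM. The log2 fold change was 0.60 (SE 0.13, edgeR adjusted p = 0.013), and LRRC75A, at 3.22 ± 0.284 CPM in DMSO and 2.75 ± 0.424 CPM with drug, did not pass the test (adjusted p = 0.468). The call was lost without DMSO replicate 1, the lowest DMSO library (0.52, edgeR adjusted p = 0.0585). PITPNA-AS1, opposite a phosphatidylinositol transfer protein gene at chr17:1516931-1518096, went from 6.20, 8.69, 7.81 and 7.96 CPM to 12.2, 10.5, 10.7 and 10.4 CPM (log2 fold change 0.51, SE 0.14, edgeR adjusted p = 0.0367), a call that held in 1 of the 8 fits that left out a library. This member has 69.9% of its exonic bases under exons of PITPNA, whose own level was 74.3 ± 5.78 and 63.4 ± 5.50 CPM.

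FEZF1-AS1 was at 1.11 ± 0.327 CPM in DMSO and 2.32 ± 0.602 CPM with pinometostat; FEZF1, a zinc finger gene of the forebrain, was too low to be tested. With a mean of 29.75 counts in the DMSO libraries, FEZF1-AS1 reached the minimum only through the other groups, so these levels are given as a description, although it is among the 23. MYLK-AS1, tail-to-tail with the myosin light chain kinase gene at chr3:123585542-123644568 (13.6% of exonic bases covered), was at 1.43, 1.79, 1.098 and 2.06 CPM in DMSO and at 2.91, 2.99, 2.85 and 3.04 CPM with pinometostat. The treated libraries were close together and all above the DMSO libraries (log2 fold change 0.88, SE 0.22, edgeR adjusted p = 0.0223). The call held in 3 of the 8 fits that left out a library and was lost without DMSO replicate 1 or 3 or pinometostat replicate 1, 2 or 4. MYLK differed by -0.22 (edgeR adjusted p = 0.448).

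NFYC-AS1 and CCDC18-AS1 (both 0.74), TMEM44-AS1 (0.72) and MZF1-AS1 (0.67) also rose on the log2 scale without overlap, at edgeR adjusted p of 0.049, 0.0409, 0.0283 and 0.0406. Their sense genes, among them a subunit of the CCAAT-binding factor NF-Y and the zinc finger gene MZF1, did not pass the test. For TMEM44-AS1 pinometostat replicate 1 lay apart at 10.6 CPM from the other 3 at 6.70 to 7.09 CPM. ZNF674-AS1 (0.63, edgeR adjusted p = 0.008116) and KTN1-AS1 (0.58, edgeR adjusted p = 0.0107) are named because they were the only 2 of the 23 called in every fit that left out 1 library, a choice made after their values were seen. ZNF674-AS1 had 5.89, 5.53, 5.61 and 6.68 CPM in DMSO and 9.62, 9.44, 9.25 and 8.49 CPM with drug. KTN1-AS1 had 6.72, 6.03, 6.38 and 7.74 CPM and 10.1, 9.82, 10.6 and 9.56 CPM, so both were separated by more than the spread within a group.

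With pinometostat 8 pairs changed their ratio (3.2%, against 1.66% of opposite-strand pairs in either direction). Leaving out single libraries gave 3 to 5. All 8 moved upward. The 0.829% of opposite-strand pairs called upward is no baseline for this direction, since the ratios of other pairs were plus strand to minus strand. FBXL19-AS1, head-to-head with the gene of a CpG-binding F-box protein, went from 6.04, 7.55, 5.49 and 3.94 CPM to 7.65, 10.4, 7.65 and 8.94 CPM, while FBXL19 went from 95.0 ± 20.1 to 65.5 ± 9.31 CPM (log2 fold change -0.54, edgeR adjusted p = 0.0468). The antisense change of 0.59 missed the threshold (edgeR adjusted p = 0.077), but the ratio rose by 1.13 (SE 0.19, limma adjusted p = 0.0106). PPP1R26-AS1, opposite a regulatory subunit gene of protein phosphatase 1, gave the largest ratio at 1.24 (SE 0.21, limma adjusted p = 0.0106), with an antisense change of 0.83 (edgeR adjusted p = 0.0521). PCBP1-AS1, which spans the gene of the RNA binding protein PCBP1, had a ratio of 0.62 (limma adjusted p = 0.0494), and MELTF-AS1 (0.99, with 26.0% of exonic bases covered), TDRKH-AS1 (0.85, with 38.2% covered), NR2F2-AS1 (0.81) and NRSN2-AS1 (0.80) were called as well. Ratios of FBXL19-AS1 and PPP1R26-AS1 were called in all 8 fits that left out a library, and those of PCBP1-AS1, MELTF-AS1, TDRKH-AS1, NR2F2-AS1 and NRSN2-AS1 in at most 1 of them.

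**Figure D5:**
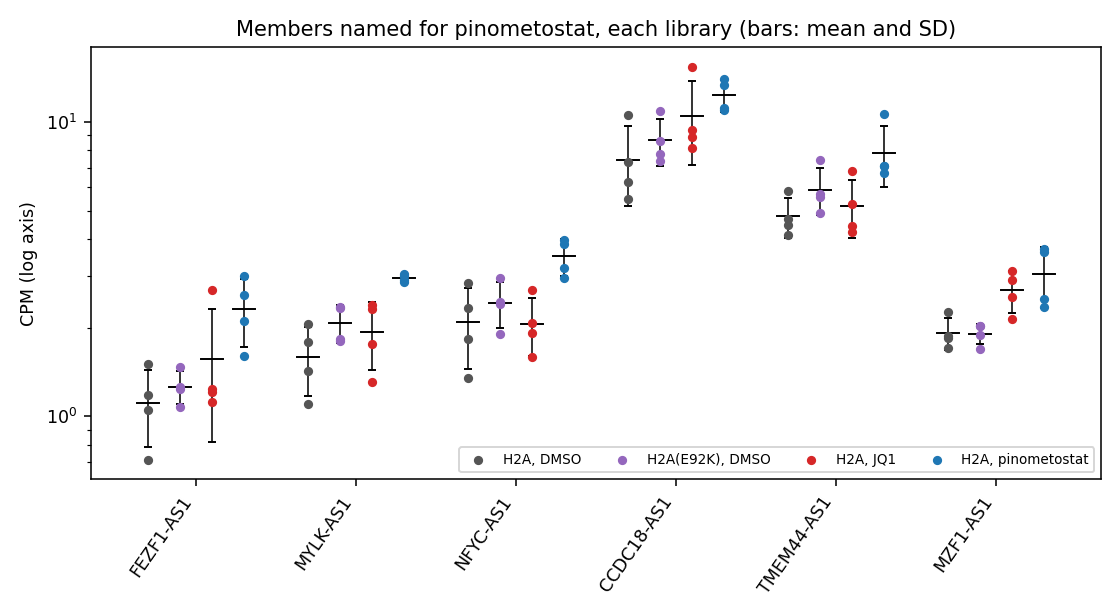
Level of 6 members named for their called rises with pinometostat (CPM scaled by TMM, logarithmic vertical axis) in the 4 libraries of each group, 1 point per library with bars for mean and SD, coloured by group. Every pinometostat point (blue) lies above every DMSO point (grey) of the same member, as for MYLK-AS1 at 2.85 to 3.04 CPM against 1.098 to 2.06 CPM. FEZF1-AS1, with a mean of 29.75 counts in DMSO, reached the minimum only through the other groups and is shown as a description.

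Among the 10 without a named sense gene, RPARP-AS1, HOXD-AS2 and HOXA-AS3 rose with pinometostat. RPARP-AS1 had 14.04, 16, 16.7 and 21.2 CPM in DMSO and 29.3, 23.1, 26.4 and 25.8 CPM with drug (log2 fold change 0.62, edgeR adjusted p = 0.0169), and C10orf95 on the other strand rose too (1.16, edgeR adjusted p = 0.009553). HOXD-AS2 rose by 0.64 (edgeR adjusted p = 0.0375) and HOXA-AS3 by 0.57 (edgeR adjusted p = 0.049). Of the 8 fits that left out 1 library, RPARP-AS1 was called in 5, HOXD-AS2 in 1 and HOXA-AS3 in 0.

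In all, 64 members were called with JQ1 or pinometostat. Both comparisons use the same DMSO libraries, so a shared member is not 2 independent results. SDCBP2-AS1 was higher in both, at 2.38 ± 0.0507 CPM in DMSO, 3.66 ± 0.554 CPM with JQ1 and 3.65 ± 0.681 CPM with pinometostat. TAF1A-AS1 and MAPKAPK5-AS1 were lower with JQ1 and higher with pinometostat. TAF1A-AS1, opposite a subunit gene of the RNA polymerase I factor SL1, had 2.37, 2.56, 3.09 and 2.85 CPM in DMSO, 2.18, 1.85, 1.76 and 1.91 CPM with JQ1, and 3.94, 4.14, 4.10 and 4.2 CPM with pinometostat. MAPKAPK5-AS1, beside a stress kinase gene with 34.6% of exonic bases covered, held 34.1 ± 3.90, 25.9 ± 1.64 and 46.6 ± 2.96 CPM. For these 2 members the 3 groups did not overlap. Of the 8 fits that left out 1 library, TAF1A-AS1 was called in 3 with JQ1 and 6 with pinometostat, MAPKAPK5-AS1 in 6 and 5, and SDCBP2-AS1 in 4 and 1. Both pinometostat rises of TAF1A-AS1 and MAPKAPK5-AS1 were lost without DMSO replicate 1 and without DMSO replicate 2, and both JQ1 falls without DMSO replicate 3 and without DMSO replicate 4.

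The E92K mutant gave no call. None of the 272 members passed the edgeR test in either direction (0% of all 17306 genes did), DESeq2 and limma-voom called 0 members, and the smallest adjusted p of a member was 0.656. At an unadjusted p below 0.05, 11 members were higher and 7 lower. The median log2 fold change was 0.07 against 0.00 for all tested genes, and -0.04 against -0.09 with limma on log2(TPM + 1). Without E92K replicate 4 the medians were 0.01 and -0.02, with 6 members higher and 3 lower at an unadjusted p below 0.05. Without JQ1 replicate 1 as well they were 0.04 and 0.01, with 16 higher and 7 lower. Neither fit called a member. By group, 15 members had groups that did not overlap (5.51%, against 5.17%), and 0 antisense to sense ratios were called (0% of all pairs). HHIP-AS1, for example, was at 1.82, 2.10, 2.21 and 2.68 CPM with E92K, a range that spans that of the H2A libraries. With 4 libraries a group this does not show that the mutant leaves the members unchanged.

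Genes that act on short antisense transcripts were read from 3 lists. Of 22 tested genes of the nuclear exosome and its adaptors, 2 fell with JQ1 and none rose, where 10.4% of all tested genes fell and 7.16% rose: RBM7 by 1.05 (edgeR adjusted p = 0.005006) and ZCCHC8 by 0.84 (edgeR adjusted p = 0.0303) on the log2 scale, which with an RNA helicase form the nuclear exosome targeting complex. RBM7 was called in all 8 fits that left out a library and ZCCHC8 in 2. Pinometostat lowered ZC3H18, a cap-binding partner of these adaptors, by 0.55 (edgeR adjusted p = 0.0262), called in 5 of the 8 fits. Of 22 Integrator and early termination genes, 4 rose and 3 fell with JQ1, with PCF11, a termination factor, at 0.94 (edgeR adjusted p = 6.403e-05), INTS5 at 0.75 and ZC3H4 at -0.70 (called in 5 of the 8 fits); with pinometostat only INTS1 was called, at -0.56, in 2 of the 8 fits that left out a library. Of 17 cleavage and polyadenylation genes, 3 rose and 3 fell with JQ1, among them RBBP6 at 1.07 (0.40 without JQ1 replicate 1) and CSTF2T at -0.68, and SYMPK, called in 1 of the 8 fits, fell with pinometostat by 0.46. No list was tested against the rest. List medians with JQ1 were 0.13, 0.06 and 0.03, close to the 0.04 of all tested genes. The part of these genes in the members' changes was not tested.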

How the data were processed

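RNA-seq of total RNA from 16 libraries in 4 groups of 4 was used, grouped by the labels. The raw counts per gene are as deposited by the authors, and the TPM values are the authors' own; no source used here names the aligner, the strand setting or the other steps behind either. The members and the gene lists were chosen with earlier results of these data known. Library totals are 17779692 to 27599686 counts, which limits the precision of members near the minimum of 30.

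Gene geometry came from the exon coordinates deposited with the counts. Counts were tested with edgeR 4.0.16 (TMM scaling, filterByExpr with a minimum count of 10 and a total of 15, quasi-likelihood, 1 mean per group over all 16 libraries, two-sided, Benjamini-Hochberg over 17306 genes, threshold 0.05). The log2 ratio of each member's CPM to its sense gene's (prior count 2) was tested with limma 3.58.1 over 4582 opposite-strand pairs of genes. These overlap or start within 1000 bases of each other or share a name. For pairs other than a member and its sense gene the ratio was plus-strand to minus-strand gene. DESeq2 1.42.0, limma-voom, other scalings, filters, thresholds and sets of libraries were alternatives, and the scripts were tested on simulated data (R 4.3.3, Python 3.11.15). Log2(TPM + 1) served as one alternative; on that scale changes of low genes are understated.

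Named genes were, per comparison, up to 8 members with the largest rise and up to 8 with the largest fall among those called with groups that do not overlap, the 10 members of highest TPM, up to 4 pairs with the smallest p of the ratio, their sense genes, and list genes by smallest p. Of the list genes, ZC3H4 and RBBP6 with JQ1 are outside that order. SCAF4 and INTS14 had a smaller edgeR adjusted p than ZC3H4, and CSTF3, CSTF1 and CPSF2 a smaller one than RBBP6. Members outside this rule are named where a small count is spelled out and were chosen after their values were seen. Some members that the rule names are not reported here. Promoter windows are from RefSeq (GRCh38.p14).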

Additional observations from a re-analysis of the deposited data

Results flagged for a closer look

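Among 144 groups of 4 libraries of the named members and of their summed CPM, 11 had 1 library whose gap to its nearest neighbour exceeded 0.829 of the group's range, Dixon's 95% critical value for 4 values, where chance flags about 1 in 20, or 7.2 of 144. All values are CPM. In JQ1 replicate 1, which also has the high mitochondrial share, ATP2A1-AS1 was at 46.63 (others 14.83 to 19.82), FEZF1-AS1 at 2.683 (others 1.123 to 1.242) and FGD5-AS1 at 55.62 (others 78.71 to 79.51). In E92K replicate 4, ATP2A1-AS1 was at 30.87 (others 16.88 to 18.29) and ATP6V0E2-AS1 at 2.684 (others 3.785 to 3.893). The part of the mitochondrial share in these values was not tested.

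Pinometostat replicate 1 was the high library for NUP50-AS1 at 14.1 (others 10.75 to 11.06), TMEM44-AS1 at 10.61 (others 6.702 to 7.088) and PITPNA-AS1 at 12.22 (others 10.41 to 10.65). VPS9D1-AS1 was low in pinometostat replicate 3 at 35.01 (others 42.41 to 43.68). NUP50-AS1 was low in DMSO replicate 1 at 6.457 (others 8.524 to 8.793), and ASB16-AS1 was high in JQ1 replicate 3 at 10.3 (others 9.428 to 9.57).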

How the results depend on the processing

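The naming rule picked 17 members called with JQ1 and 10 called with pinometostat, and none of these changes reversed under any alternative run. Most were picked for groups that do not overlap, so leaving out a library could hardly reverse them. Over all alternatives, the stricter threshold included, the call was lost in 60 of 339 checks with JQ1 and 96 of 199 with pinometostat. The direction of the other called members and of the ratios was not checked across all alternatives. The E92K median, without calls, went from 0.07 to -0.04 with log2(TPM + 1). At an unadjusted p below 0.05 that fit had 4 members higher and 6 lower, in place of 11 and 7. With JQ1, the 8 members called higher became 3 with library size alone, 5 with upper quartile scaling, 3 with the 8 libraries of the comparison alone, 1 with log2(TPM + 1), 2 at an adjusted p below 0.01, 5 with a mean count of at least 100, 13 without JQ1 replicate 1 and E92K replicate 4, and 3 to 9 when single libraries were left out. The 36 called lower became 23 with a mean count of at least 100 and stayed within 1.5 times otherwise (27 to 42 when single libraries were left out). Shares of all tested genes called higher moved too: 2.50% with library size alone, 4.715% with upper quartile scaling and 3.08% with the 8 libraries alone. Without JQ1 replicate 1 and E92K replicate 4 that share was 10.2%. The 43 called ratios became 16 with the 8 libraries alone, 25 for members with exons under exons of the other strand and 22 for those with none under sense exons, an alternative chosen after seeing the data.

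With pinometostat, the 23 called higher became 15 with library size alone, 15 with no filter, 62 with the 8 libraries alone, 0 with log2(TPM + 1) (28 higher and 12 lower at an unadjusted p below 0.05), 1 at an adjusted p below 0.01, 14 with a mean count of at least 100, 67 without the 2 libraries above, and 2 to 16 when single libraries were left out. The 0 called lower became 2 with DESeq2, 7 with the 8 libraries alone, 8 without those 2 libraries, and 0 to 2 when single libraries were left out. Of all tested genes, 12.5% rose and 15.1% fell with the 8 libraries alone, and 12.9% and 14.5% without those 2 libraries. The 8 called ratios became 3 with a prior count of 0.5, 18 with TPM + 1, 31 with the 8 libraries alone, 46 without those 2 libraries, 5 and 3 for members with and without covered exons, and 3 to 5 when single libraries were left out. The cause of these shifts was not tested, except that stricter limits keep fewer members.

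Libraries of the groups share replicate numbers only: same-numbered libraries correlated at -0.054 to 0.099 (JQ1) and -0.208 to 0.147 (pinometostat), and not every library correlated best with its own number. With the replicate number as a block, JQ1 gave 7 higher, 31 lower and 32 ratios, pinometostat 6 higher and 3 ratios, and E92K 0. Of all tested genes, 4.84% rose and 8.81% fell with JQ1 in that fit, and 1.29% rose with pinometostat.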
